A study of Mus musculus with 10 samples.

Results

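The tricarboxylic acid cycle enzymes described here are the products of 9 genes, citrate synthase (Cs), isocitrate dehydrogenases (Idh2, Idh3a, Idh3b and Idh3g), oxoglutarate dehydrogenase (Ogdh), the shared subunit of succinyl-CoA ligase (Suclg1), fumarate hydratase (Fh1) and mitochondrial malate dehydrogenase (Mdh2). They were found by symbol among the 55385 genes of the deposited count table, and all 9 were present and passed the filter on low counts. The libraries hold total RNA of mouse left ventricle, of a strain that the labels write as C56Bl6. In the HFpEF group, 5 libraries came from animals that ate a High-Fat diet and received L-NAME, which blocks nitric oxide synthases, over 6 weeks. The combination is used to model heart failure with preserved ejection fraction (HFpEF). In the Control group, 5 libraries came from animals on a standard diet, also recorded with a time of 6 weeks. The labels name no transgene and give neither sex nor age. Nor do they state that the libraries are from different mice, so the p-values cover the spread among these libraries, part of which may be technical.

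The tricarboxylic acid cycle runs in the mitochondrial matrix. Acetyl-CoA from fatty acids, pyruvate or ketone bodies is joined to oxaloacetate, and the citrate that forms is oxidised stepwise back to oxaloacetate. The electrons go to NADH and FADH2, and from these to the respiratory chain, which supplies most of the ATP of a beating heart. Several enzymes of the cycle are complexes of subunits encoded by separate genes, and some have a cytosolic counterpart that works on the same metabolites outside the mitochondrion.

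Library totals ran from 31286355 to 33604554 counts in HFpEF and from 31555001 to 46108710 in Control, where libraries 4 and 5 were the deepest. Genes of the mitochondrial genome held 37.6% ± 0.897 of the counts in HFpEF and 35.7% ± 1.70 in Control (SD, n = 5 each; exact permutation test, two-sided p = 0.0635). Without HFpEF 1, Control 2 or Control 3 that exact permutation p was 0.0476, 0.0397 or 0.0317. Cardiomyocyte markers summed to between 32863 and 36233 CPM (counts relative to the scaled library total) in HFpEF and between 33716 and 36181 CPM in Control, so every library held heart muscle RNA. These markers do not separate the left ventricle from the right. Atrial markers summed to at most 1.18 CPM in HFpEF and 1.28 CPM in Control, and skeletal muscle markers to at most 0.751 and 0.632 CPM in HFpEF and Control. The Y-linked gene Ddx3y lay between 49.4 and 58.0 CPM in HFpEF and between 52.6 and 60.04 CPM in Control.

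After scaling, all 9 genes had a higher mean in HFpEF than in Control, by small amounts. The 2 that passed the test were Idh3g, a regulatory subunit of the NAD-dependent isocitrate dehydrogenase, which rose 1.2-fold, and Fh1, which hydrates fumarate to malate and rose 1.14-fold. None passed in the lower direction and 7 did not pass. A gene was called at a Benjamini-Hochberg adjusted p below 0.05 in edgeR's quasi-likelihood test, adjusted over the 18491 genes tested, of which 5.33% were called, 3.24% higher and 2.09% lower. The median log2 fold change of the 9 genes was 0.16, with a range of 0.06 to 0.26, and the median over all genes tested was -0.01. A positive log2 fold change was found for 47.2% of all genes tested. At an unadjusted p below 0.05 stood 6 of the 9, against 20.5% of all genes. The 9 were chosen with earlier results of these data known, and their levels correlate across libraries. Their counts beside the shares of all genes are therefore a description, not a test. In scaled CPM, the HFpEF libraries all lay above the Control libraries for Idh3g, Suclg1 and Fh1, an arrangement found for 3.88% of genes tested. As counts over raw library totals, the groups overlap for each of these genes. In bulk tissue, fewer cells of a type and less RNA per cell cannot be told apart.

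**Figure D1:**
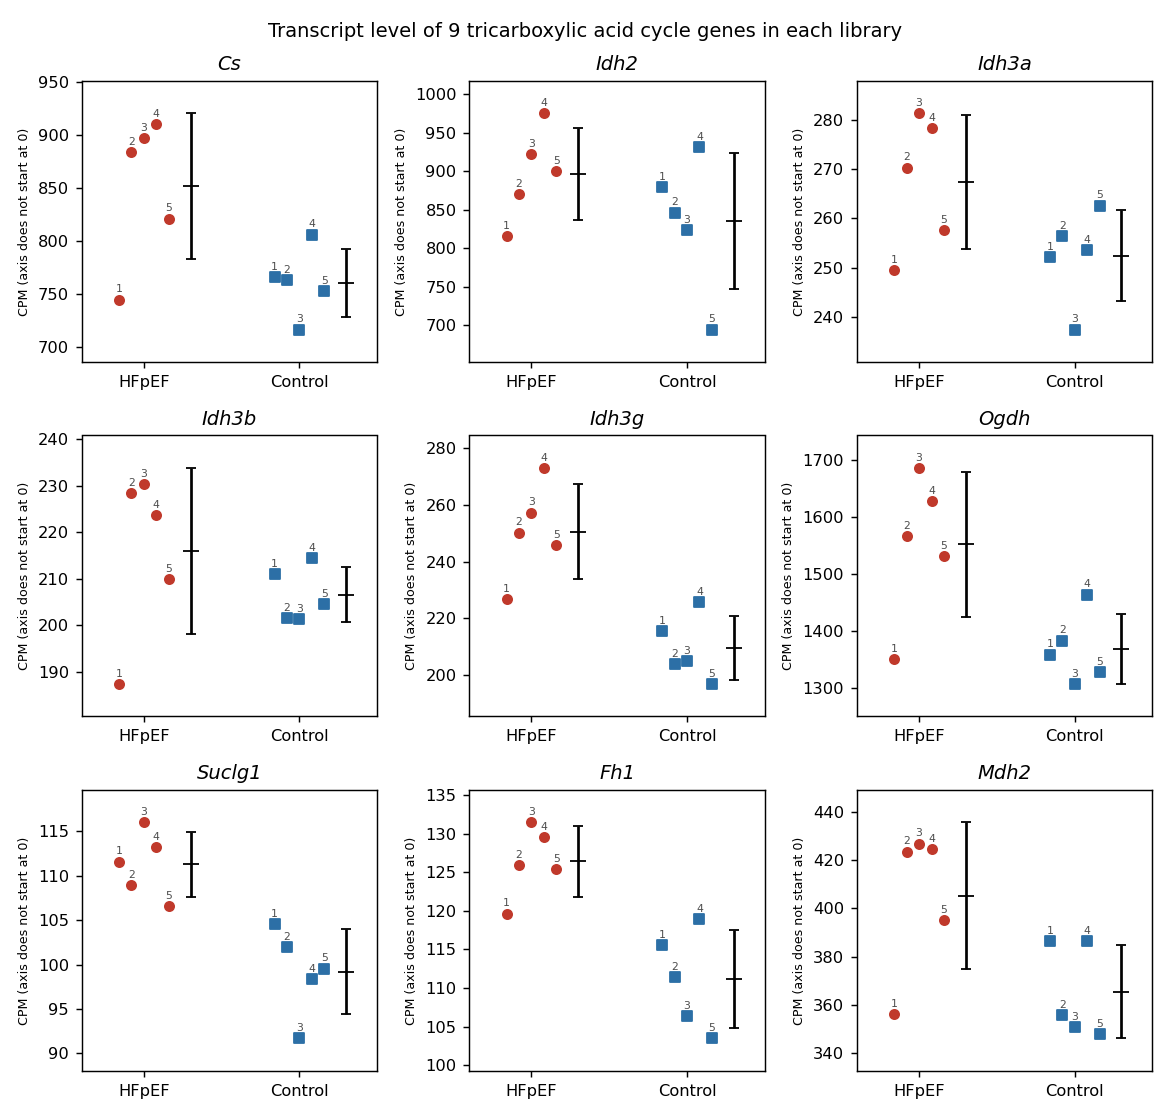
CPM of the 9 tricarboxylic acid cycle genes in each library, with HFpEF as circles and Control as squares, the library number beside each point, and mean ± SD (n = 5 each) at the right of each group. The vertical axes do not start at 0. The groups do not overlap for Idh3g, Suclg1 and Fh1, and HFpEF 1 lies lowest of the HFpEF libraries in 8 of the 9 panels.

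Before scaling, the 9 genes together held 0.451% ± 0.0172 of all counts in HFpEF libraries and 0.435% ± 0.0242 in Control libraries (SD, n = 5 each). Of the counts outside the mitochondrial genome they held 0.723% ± 0.0352 in HFpEF and 0.677% ± 0.0281 in Control. Their summed level ran from 4162 to 4956 CPM in HFpEF and from 3989 to 4499 CPM in Control, so the summed ranges overlap. Raw counts of a single gene in a library lay between 2917 (Suclg1) and 66661 (Ogdh). Counting error weighs more for the genes with the fewest counts, Suclg1 and Fh1, than for the others. On a scale that allows levels of different genes to be compared, CPM per kilobase of exons, Idh2 was the highest, at 346 ± 22.9 in HFpEF and 323 ± 34.3 in Control. Ogdh followed at 285 ± 23.3 in HFpEF and 251 ± 11.2 in Control, and then Cs at 147 ± 11.9 in HFpEF and 132 ± 5.56 in Control. Mdh2 stood at 114 ± 8.52 CPM per kilobase in HFpEF and 103 ± 5.44 in Control. Below it came Idh3g at 92.8 ± 6.23 and 77.6 ± 4.18 CPM per kilobase in HFpEF and Control, Idh3b at 63.1 ± 5.22 and 60.4 ± 1.73, and Idh3a at 52.7 ± 2.68 and 49.8 ± 1.83. The lowest per length were Fh1, with 37.3 ± 1.34 in HFpEF and 32.8 ± 1.88 in Control, and Suclg1, with 24.1 ± 0.797 in HFpEF and 21.5 ± 1.05 in Control. The order was the same in both groups, and each neighbouring pair in it was further apart than the sum of its SDs in both groups.

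Citrate synthase joins acetyl-CoA to oxaloacetate and is the entry step of the cycle. Its gene, Cs (mm10 chromosome 10, 128337734 to 128362479, plus strand), had 744, 883, 897, 910.4 and 821 CPM in HFpEF libraries 1 to 5, against 766, 763, 716, 806 and 752 CPM in Control libraries 1 to 5. HFpEF libraries 2 to 5 lay above every Control library, and HFpEF 1 lay below all but Control 3. The log2 fold change was 0.16 ± 0.06 (SE, adjusted p = 0.133). Without HFpEF 1, Cs passed the test, with an adjusted p of 0.0267.

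The NAD-dependent isocitrate dehydrogenase, the regulated oxidative step from isocitrate to oxoglutarate, is built from the catalytic subunit Idh3a and the regulatory subunits Idh3b and Idh3g. Idh3g (identifier ENSMUSG00000002010.17, mm10 chromosome X, 73778963 to 73786897, minus strand) had 227, 250.2, 257, 273 and 246 CPM in HFpEF libraries 1 to 5, against 216, 204, 205, 226 and 197 CPM in Control libraries 1 to 5. Every HFpEF library lay above every Control library, though HFpEF 1 and Control 4 were less than 1 CPM apart. Its log2 fold change of 0.26 ± 0.06 (SE, 95% interval 0.14 to 0.38) had an adjusted p of 0.0146. Idh3g was the only one of the 9 to pass in all 19 alternative fits, including each that left out 1 library.

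Idh3a (chromosome 9, 54586334 to 54604661, plus strand), the catalytic subunit, had 249.5, 270.3, 281, 278 and 258 CPM in HFpEF libraries, against 252, 256, 237, 254 and 263 CPM in Control libraries. Idh3b (chromosome 2, 130279309 to 130284547, minus strand) had 187, 228, 230.4, 224 and 209.9 CPM in HFpEF libraries, against 211, 201, 201, 214 and 205 CPM in Control libraries. The groups overlap for both, and HFpEF 1 was the lowest of the 10 libraries for Idh3b. Neither passed the test, at log2 fold changes of 0.08 ± 0.05 for Idh3a and 0.06 ± 0.06 for Idh3b (SE, adjusted p = 0.364 and 0.576). The 95% interval was -0.02 to 0.19 for Idh3a and -0.06 to 0.19 for Idh3b.

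Since the subunits belong to one enzyme, their counts were also set against each other within each library, where depth and scaling cancel. Idh3b counts per Idh3g count were 0.826, 0.913, 0.896, 0.819 and 0.854 in HFpEF libraries 1 to 5, against 0.978, 0.987, 0.981, 0.950 and 1.04 in Control libraries 1 to 5. All HFpEF libraries lay below all Control libraries, a difference of mean log2 ratios of -0.20 (exact permutation test, two-sided p = 0.00794, adjusted over 12 ratios 0.0317). Idh3a counts per Idh3g count were 1.10, 1.08, 1.09, 1.02 and 1.05 in HFpEF libraries, against 1.17, 1.26, 1.16, 1.12 and 1.33 in Control libraries. Again the groups did not overlap, with a difference of -0.17 on the log2 scale (exact permutation test, two-sided p = 0.00794, adjusted 0.0317). The smallest p that the 252 splits of 10 libraries allow is 0.00794. The third ratio, Idh3a to Idh3b, averaged 1.24 in HFpEF and 1.22 in Control and did not pass (difference 0.02, exact permutation p = 0.587, adjusted 0.641). Both ratios that passed hold Idh3g, itself called above, so they are not separate evidence. The 12 ratios were chosen with earlier results of these data known, and the adjustment does not cover that choice. The Idh3a to Idh3g difference passed in 6 of the 10 repeats that left out 1 library and not without HFpEF 1, 3, 4 or 5 (adjusted p up to 0.0635).

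The windows around the start sites of Idh3g, whose gene rose, and Idh3b, whose gene did not pass, are shown for comparison, 5′ to 3′ on the gene's strand, from 250 bases before to 50 bases after the start. They lie at chrX:73786848-73787147 (minus strand) and chr2:130284402-130284701 (minus strand) in RefSeq's GRCm38.p6, and capitals mark CGGAAG on either strand, the core letters bound by ETS factors.
Idh3g: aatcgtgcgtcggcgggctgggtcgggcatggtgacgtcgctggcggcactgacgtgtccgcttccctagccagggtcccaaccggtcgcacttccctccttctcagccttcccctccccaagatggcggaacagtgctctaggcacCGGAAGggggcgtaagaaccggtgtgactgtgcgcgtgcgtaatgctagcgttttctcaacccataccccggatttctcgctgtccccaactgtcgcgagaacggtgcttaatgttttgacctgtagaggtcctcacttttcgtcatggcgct
Idh3b: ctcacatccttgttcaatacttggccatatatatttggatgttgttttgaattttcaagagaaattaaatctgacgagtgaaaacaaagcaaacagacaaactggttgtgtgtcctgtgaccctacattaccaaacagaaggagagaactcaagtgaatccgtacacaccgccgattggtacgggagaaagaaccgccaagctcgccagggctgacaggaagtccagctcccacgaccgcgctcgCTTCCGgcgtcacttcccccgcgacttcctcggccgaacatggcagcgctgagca
The capitals start 103 bases before the start site in Idh3g and 5 bases before it in Idh3b. The window of Idh3g is 60.3% G and C and that of Idh3b 50.3%, against a median of 52.7% over 32851 windows.

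The NADP-dependent mitochondrial enzyme, encoded by Idh2 (chromosome 7, 80094846 to 80115392, minus strand), also makes oxoglutarate from isocitrate and yields NADPH. Idh2 had 816, 869.9, 922, 975 and 900.5 CPM in HFpEF libraries, against 879.9, 846, 824, 932 and 694 CPM in Control libraries. The ranges overlap, and Control 5 was the lowest of the 10. Idh2 did not pass the test (log2 fold change 0.10 ± 0.07, 95% interval -0.05 to 0.26, adjusted p = 0.461). The log2 fold change was 0.0504 without Control 5 and 0.152 without Control 4, the extremes with 1 library left out. Its cytosolic counterpart Idh1 was at 33.7 ± 1.96 CPM in HFpEF and 34.7 ± 1.77 CPM in Control (SD, n = 5 each; log2 fold change -0.04, adjusted p = 0.724). The ratio of Idh2 to Idh1 averaged 26.6 in HFpEF and 24.1 in Control and did not pass (difference of mean log2 ratios 0.15, exact permutation p = 0.0714, adjusted over the ratios 0.107). Without Control 5 the difference was 0.0651.

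**Figure D2:**
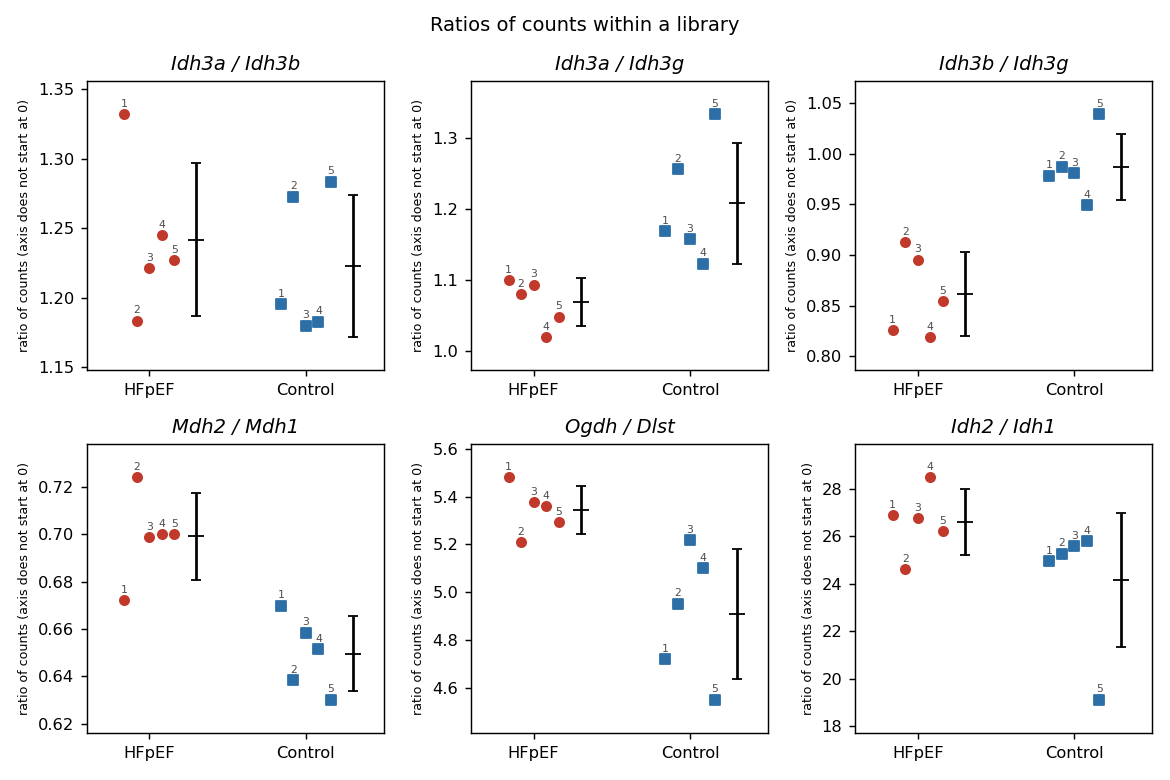
Ratios of the counts of gene pairs within each library, with HFpEF as circles and Control as squares, library numbers beside the points and mean ± SD (n = 5 each). The vertical axes do not start at 0. The groups do not overlap for Idh3a to Idh3g, Idh3b to Idh3g and Mdh2 to Mdh1, while Idh3a to Idh3b averages 1.24 in HFpEF and 1.22 in Control. Control 5 is low for Idh2 to Idh1.

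Oxoglutarate dehydrogenase turns oxoglutarate into succinyl-CoA and is a complex of Ogdh, which binds the substrate, with Dlst and Dld. Ogdh (chromosome 11, 6291633 to 6356642, plus strand) had 1351, 1567, 1686, 1628 and 1532 CPM in HFpEF libraries 1 to 5, against 1359, 1383, 1307, 1464 and 1328 CPM in Control libraries 1 to 5. HFpEF libraries 2 to 5 lay above all Control libraries, and HFpEF 1 lay within them. The log2 fold change of 0.18 ± 0.06 (SE) did not pass (adjusted p = 0.0990). It passed without HFpEF 1 (adjusted p = 0.0174) and in DESeq2 (adjusted p = 0.0315). Neither partner subunit passed the test, with Dlst at 291 ± 26.3 CPM in HFpEF and 279 ± 16.7 CPM in Control, and Dld at 144 ± 12.1 CPM in HFpEF and 139 ± 10.3 CPM in Control (SD, n = 5 each; log2 fold changes 0.06 and 0.05, adjusted p = 0.675 and 0.70). With 1 library left out, the log2 fold change ran from 0.0216 (without Control 3) to 0.113 (without HFpEF 1) for Dlst and from 0.00221 (without HFpEF 3) to 0.0927 (without Control 2) for Dld, and neither passed.

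Counts of Ogdh per Dlst count were 5.48, 5.21, 5.38, 5.36 and 5.29 in HFpEF libraries, against 4.72, 4.95, 5.22, 5.10 and 4.55 in Control libraries. The groups touch, since HFpEF 2 lay just below Control 3, and the difference of 0.12 on the log2 scale passed (exact permutation test, two-sided p = 0.0159, adjusted over 12 ratios 0.0476). It did not pass in 4 of the 10 repeats without 1 library, those without HFpEF 1, 3, 4 or 5 (adjusted p up to 0.119). The ratio of Ogdh to Dld averaged 10.8 in HFpEF and 9.86 in Control and did not pass (exact permutation p = 0.0476, adjusted 0.0952). Ogdhl, which encodes a relative of Ogdh, had 70.6, 91.2, 94.4, 93.6 and 93.1 CPM in HFpEF libraries, against 99.9, 96.8, 96.6, 96.7 and 96.8 CPM in Control libraries. All HFpEF libraries were below all Control libraries, but the gene did not pass (log2 fold change -0.14 ± 0.07, adjusted p = 0.276). HFpEF libraries all lay below the Control libraries for 2.93% of genes tested.

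Succinyl-CoA ligase releases CoA and makes ATP or GTP directly. Its shared subunit, encoded by Suclg1 (chromosome 6, 73248382 to 73276911, plus strand), pairs with the product of Sucla2 in the ADP-linked form and with that of Suclg2 in the GDP-linked form. Suclg1 had 112, 109, 116, 113 and 107 CPM in HFpEF libraries 1 to 5, against 105, 102, 91.7, 98.3 and 99.5 CPM in Control libraries 1 to 5. Every HFpEF library was above every Control library. The log2 fold change of 0.17 ± 0.05 (SE, 95% interval 0.07 to 0.27) lay just short of the threshold, at an adjusted p of 0.0538, and passed in DESeq2 (adjusted p = 0.00620). Suclg2 had 72.7, 76.5, 91.4, 81.5 and 74.8 CPM in HFpEF libraries, against 68.5, 70.7, 60.5, 72.6 and 66.6 CPM in Control libraries, and it also missed the threshold although the groups did not overlap (log2 fold change 0.23 ± 0.07, adjusted p = 0.0583). Sucla2 was at 173 ± 13.4 CPM in HFpEF and 160.5 ± 9.79 CPM in Control (SD, n = 5 each; adjusted p = 0.329). None of the ratios among the 3 genes passed (adjusted p = 0.0952 for Sucla2 to Suclg2, 0.413 for Suclg2 to Suclg1 and 0.419 for Sucla2 to Suclg1).

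Fumarate hydratase turns fumarate into malate. Fh1 (identifier ENSMUSG00000026526.14, chromosome 1, 175600374 to 175625635, minus strand) had 119.6, 126, 131, 129.6 and 125 CPM in HFpEF libraries 1 to 5, against 116, 111, 106, 119 and 103 CPM in Control libraries 1 to 5. Every HFpEF library lay above every Control library, by less than 1 CPM between HFpEF 1 and Control 4. Its log2 fold change of 0.19 ± 0.05 (SE, 95% interval 0.08 to 0.29) had an adjusted p of 0.0417. Of the 10 fits without 1 library, it passed only in those without HFpEF 1 and without Control 4, and the adjusted p reached 0.105 without HFpEF 3. The preceding enzyme, succinate dehydrogenase, which oxidises succinate to fumarate and is also complex II of the respiratory chain, had 1 of 4 subunits called. That was the membrane anchor Sdhc, which rose to 127, 135, 136, 130.4 and 124 CPM in HFpEF libraries, against 113, 108, 99.4, 115 and 109 CPM in Control libraries (log2 fold change 0.26 ± 0.05, adjusted p = 0.00753). The flavoprotein subunit Sdha was at 501 ± 25.7 CPM in HFpEF and 443 ± 21.9 CPM in Control (SD, n = 5 each; adjusted p = 0.0618), and the adjusted p was 0.395 for Sdhb and 0.382 for Sdhd.

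The start sites of Fh1, called higher, and Suclg1, just short of the threshold, are shown as those of the genes at the margin of the test. The windows lie at chr1:175625586-175625885 (minus strand) and chr6:73248255-73248554 (plus strand) in RefSeq's GRCm38.p6, 5′ to 3′ on the gene's strand, again with CGGAAG on either strand in capitals.
Fh1: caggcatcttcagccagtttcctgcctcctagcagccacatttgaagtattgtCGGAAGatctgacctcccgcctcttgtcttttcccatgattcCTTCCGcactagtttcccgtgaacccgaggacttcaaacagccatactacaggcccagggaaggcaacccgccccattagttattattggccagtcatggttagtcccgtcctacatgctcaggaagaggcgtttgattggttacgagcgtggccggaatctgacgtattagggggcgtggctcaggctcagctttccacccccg
Suclg1: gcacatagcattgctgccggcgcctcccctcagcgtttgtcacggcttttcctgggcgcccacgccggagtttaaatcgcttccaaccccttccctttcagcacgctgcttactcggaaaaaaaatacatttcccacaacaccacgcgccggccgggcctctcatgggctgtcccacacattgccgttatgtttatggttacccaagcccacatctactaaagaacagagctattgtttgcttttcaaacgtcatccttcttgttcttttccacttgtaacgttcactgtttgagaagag
Fh1 holds the letters on the gene's strand 197 bases before the start site and on the opposite strand 155 bases before it, and the window of Suclg1 holds none. Of the 8 genes with an entry (Idh3a has none), 6 held CGGAAG in a window, namely Fh1, Idh2, Idh3b, Idh3g, Mdh2 and Ogdh. It was found for 31.9% of the 11715 tested genes with an entry and for 18.8% of all 27025 genes. The estrogen-related receptor letters TCAAGGTCA were in 0 of the 8 (0.466% of all genes), the direct repeat of AGGTCA with 1 base of any kind between its copies in 0 of the 8 (0.0481%), and the NRF1 letters, GCGCA and GCGC with 1 base of any kind between them, in 0 of the 8 (5.19%). Among the tested genes with an entry these shares were 0.35%, 0.0512% and 10.3%. Both strands were searched, and no motif searched overlaps another in these windows. A match is a run of letters, not a measured site, and Idh3g and Fh1 share it with genes that did not pass.

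Malate dehydrogenase closes the cycle by oxidising malate to oxaloacetate. Mdh2 (chromosome 5, 135778480 to 135790398, plus strand) had 356, 423, 427, 425 and 395 CPM in HFpEF libraries 1 to 5, against 386, 356, 351, 387 and 348 CPM in Control libraries 1 to 5. HFpEF libraries 2 to 5 lay above every Control library, and HFpEF 1 lay within the Control range. The log2 fold change of 0.15 ± 0.06 (SE) did not pass (adjusted p = 0.163) and passed without HFpEF 1 (adjusted p = 0.0372). The cytosolic enzyme Mdh1, its partner in the malate-aspartate shuttle, was at 579 ± 33.2 CPM in HFpEF and 562 ± 23.3 CPM in Control (SD, n = 5 each; log2 fold change 0.04, adjusted p = 0.709). Counts of Mdh2 per Mdh1 count were 0.672, 0.724, 0.699, 0.70 and 0.70 in HFpEF libraries, against 0.670, 0.638, 0.658, 0.651 and 0.630 in Control libraries. All HFpEF libraries were above all Control libraries, HFpEF 1 by the smallest margin (difference of mean log2 ratios 0.11, exact permutation test, two-sided p = 0.00794, adjusted over 12 ratios 0.0317). This ratio and that of Idh3b to Idh3g passed in each of the 10 repeats that left out 1 library.

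**Figure D3:**
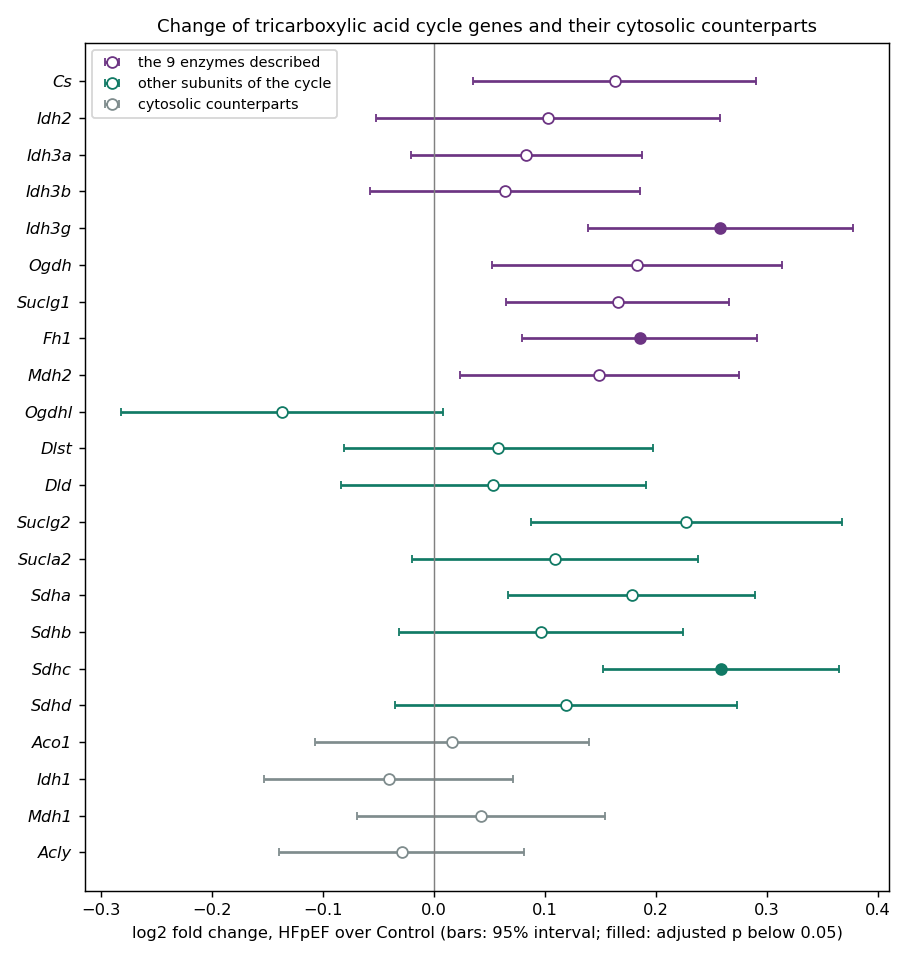
Log2 fold change (HFpEF over Control) of the 9 tricarboxylic acid cycle genes, 9 other subunits of the cycle and the cytosolic counterparts, with 95% intervals. Filled symbols mark an adjusted p below 0.05 (Idh3g, Fh1 and Sdhc), and all 9 point estimates lie between 0.06 and 0.26.

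Among the 10 other subunits of the cycle that were tested, Sdhc alone passed and 9 had a positive log2 fold change, with a median of 0.10. Without HFpEF 1, 3 passed, and without Control 4, 2 passed; DESeq2 called 3 and the fit with no filter 2, Suclg2 among them in each but that without Control 4. Of the 4 cytosolic counterparts, Aco1, Idh1, Mdh1 and Acly, none passed in either direction, and the median was -0.01.

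The libraries of the HFpEF group were not alike in these genes. Relative to the Control mean, HFpEF 1 was at -0.14 for Idh3b, -0.04 for Mdh2, -0.03 for Cs and Idh2 and -0.02 for Ogdh and Idh3a on the log2 scale. In the same library Suclg1 was at 0.17, Idh3g at 0.12 and Fh1 at 0.11. For these genes a level above the Control mean follows from groups that do not overlap. HFpEF 2, 3, 4 and 5 were above the Control mean for all 9 genes. Across all 10 libraries the pairwise correlation of log2 levels ran from 0.353 (Idh2 with Idh3a) to 0.974 (Cs with Ogdh), a description over libraries that share their group and their scaling.

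**Figure D4:**
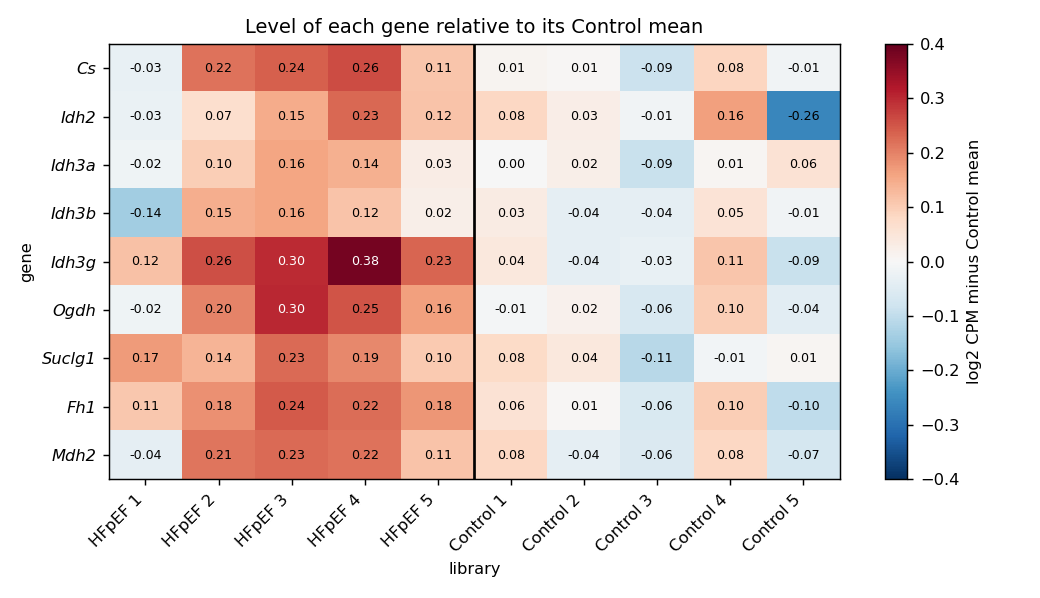
Log2 CPM of each of the 9 genes in each library minus the mean of the Control libraries, with HFpEF libraries at the left of the line and Control libraries at the right. HFpEF 1 is below 0 in 6 genes and above it in Idh3g, Suclg1 and Fh1, and Control 5 is low for Idh2.

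Genes that bring carbon to the cycle or move its intermediates were mixed. Of 21 tested rows for 20 symbols, 2 were called higher and 2 lower, with a median log2 fold change of -0.00. Me1, the cytosolic malic enzyme that turns malate into pyruvate, rose to 90.5 ± 4.31 CPM in HFpEF, against 69.1 ± 9.32 CPM in Control (SD, n = 5 each; log2 fold change 0.39 ± 0.08, adjusted p = 0.0119). Me3, a mitochondrial malic enzyme, rose to 40.0 ± 1.49 CPM in HFpEF, against 34.5 ± 2.68 CPM in Control (0.21 ± 0.06, adjusted p = 0.0352). This call was kept in only 3 of the 10 fits without 1 library, those without HFpEF 2, Control 1 or Control 4, and its adjusted p reached 0.0873. Me2, another mitochondrial malic enzyme, went the other way, at 5.62 ± 0.335 CPM in HFpEF and 6.65 ± 0.748 CPM in Control. Its HFpEF libraries all lay below the Control libraries, but it was not called (-0.25 ± 0.09, adjusted p = 0.114). Pcx, the pyruvate carboxylase that makes oxaloacetate from pyruvate, fell to 14.5 ± 1.45 CPM in HFpEF, against 19.9 ± 0.462 CPM in Control (-0.45 ± 0.07, adjusted p = 0.000993). Slc25a13, a mitochondrial aspartate-glutamate carrier, fell to 63.6 ± 4.97 CPM in HFpEF, against 78.8 ± 6.46 CPM in Control (-0.31 ± 0.07, adjusted p = 0.0130). Without Control 4 and Control 5, the 2 deepest libraries, its adjusted p was 0.0701. Slc25a12, another aspartate-glutamate carrier, was at 122 ± 7.14 CPM in HFpEF and 119 ± 3.70 CPM in Control and was not called (0.03 ± 0.05, adjusted p = 0.749).

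Of 12 tested regulators of mitochondrial gene expression, 1 was called, in the higher direction, and the list's median was 0.03. The log2 fold change was positive for 9 and negative for 3. For Sirt3 every HFpEF library lay below every Control library, but it was not called (log2 fold change -0.20 ± 0.06, adjusted p = 0.0813). Ppargc1a, which encodes the coactivator PGC-1 alpha, rose to 121 ± 19.6 CPM in HFpEF, against 85.7 ± 8.47 CPM in Control (SD, n = 5 each; log2 fold change 0.50 ± 0.11, adjusted p = 0.0199). Among the fits without a replicate block, it did not pass without HFpEF 3 (adjusted p = 0.0575), without Control 3 (0.0588), without Control 4 and Control 5 (0.0864) or in the fit with no filter (0.0666).

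Markers of other cell types also differed between the groups. Of 6 endothelial markers, 2 were called lower, Egfl7 (log2 fold change -0.30 ± 0.07, adjusted p = 0.0225) and Emcn (-0.27 ± 0.07, adjusted p = 0.0447), and the list summed to between 671 and 748 CPM in HFpEF and between 727 and 863 CPM in Control. Egfl7 did not pass without HFpEF 3, HFpEF 4 or Control 1, and Emcn passed only without HFpEF 1 or Control 4 among the fits that left out 1 library. The 6 macrophage markers summed to between 73.2 and 89.1 CPM in HFpEF and between 84.2 and 123 CPM in Control. All 6 had a negative log2 fold change, with a median of -0.26, and 4 stood at an unadjusted p below 0.05, but none was called. For Cd68 every HFpEF library lay below every Control library (log2 fold change -0.40 ± 0.12, adjusted p = 0.0664), and Mrc1 passed without Control 4 (adjusted p = 0.0482). Of 10 cardiomyocyte markers, Tnnt2 (log2 fold change -0.22 ± 0.05, adjusted p = 0.0185) and Tnnc1 (-0.29 ± 0.07, adjusted p = 0.0239) were called lower, both encoding subunits of troponin. The list was mixed, with 4 positive and 6 negative log2 fold changes and a median of -0.03. Ryr2 had the highest of them and was not called (0.12 ± 0.05, adjusted p = 0.181). Tnnt2 did not pass without HFpEF 2, HFpEF 4 or Control 1, and Tnnc1 not without HFpEF 4, Control 1 or Control 4, nor with Control 4 and Control 5 both left out (adjusted p = 0.0655).

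None of 6 fibroblast markers was called (529.7 to 579 CPM in sum in HFpEF, 473 to 629 CPM in Control), nor any of 6 smooth muscle and pericyte markers (765 to 873 CPM in HFpEF, 716 to 829.6 CPM in Control). Of the smooth muscle and pericyte markers, 5 had a positive log2 fold change, with a median of 0.17, and 1 stood at an unadjusted p below 0.05. Of the fibroblast markers, 3 were positive and 3 negative, with a median of 0.05, and 2 stood at an unadjusted p below 0.05. None of 5 erythroid markers was called (411 to 711 CPM in HFpEF, 439 to 634 CPM in Control), and 3 were positive, with a median of 0.19. Adipocyte markers summed to at most 0.654 CPM in HFpEF and 0.652 CPM in Control, and Ucp1 was at 0 in every library. The part of these markers, of depth and of the mitochondrial share in the differences of Idh3g, Fh1 and the ratios was not tested.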

How the data were processed

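Libraries were built from rRNA-depleted total RNA of flash-frozen left ventricle with a Swift Biosciences kit, per the labels' protocols. The deposited values are expected counts per gene, which the authors did not normalize, and all are whole numbers. The submitters' processing notes list mm10, RSEM 1.2.15 and Bowtie2 2.1.0, with no role for each. No source used here says whether strand was kept. The 92 ERCC rows, at 0 throughout, were left out.

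The 9 genes were taken by symbol. They, the gene lists and the ratios were chosen with earlier results of these data known. Named were the 9, other subunits and cytosolic counterparts, the called members of the other lists and some of their members that were not called. Genes were kept by filterByExpr (minimum count 10) and tested by robust quasi-likelihood fits in edgeR 4.0.16 (R 4.3.3), after TMM scaling, with no term but group. CPM use TMM-scaled totals, and intervals are 95%. The common biological coefficient of variation was 0.0965. SEs came from the F statistic and the fold change. A listed gene and its ratio are not reported here, though counts of lists and ratios include them. Ratios were tested by exact permutation of log2 count ratios over libraries. The edgeR test was also tried on data simulated from the means and dispersions of the main fit. Alternatives were RLE and upper quartile scaling, no filter, a minimum count of 50, mitochondrial genes left out, DESeq2 1.42.0, limma 3.58.1 voom, a replicate block and each library left out. Leaving out Control 4 and Control 5 together was added after seeing the data.

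All pairs of libraries in a group differed beyond sampling noise. Lengths and coordinates came from GENCODE M21 (mm10), promoters from RefSeq. None of the 9 genes had another gene's transcript at least 95% identical over 200 bases. Exons of Idh3b overlap Nop56 over 0.146% of their length.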

Additional observations from a re-analysis of the deposited data

Results flagged for a closer look

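In 44 sets of 5 libraries, the highest or lowest library was set against the others with Dixon's test, and 1 passed its critical value of 0.71. Chance alone gives about 1 in 20. The ratio of Idh2 to Idh1 counts was 19.1 in Control 5, below 25.0 to 25.8 in the other Control libraries. This ratio did not pass its test between HFpEF and Control.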

How the results depend on the processing

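None of the 9 genes changed sign in any of 19 alternatives, and their median log2 fold change stayed between 0.14 and 0.19 when 1 library was left out. Every alternative scaled the library totals, and none used raw totals. TMM factors ran from 0.929 to 1.02 in HFpEF and from 1.00 to 1.09 in Control. As counts over raw totals, Idh3a and Idh3b had a lower mean in HFpEF than in Control. The part of the scaling in the differences was not tested. Idh3g was called in all 19 alternatives (adjusted p up to 0.0442 with 1 library left out) and Fh1 in 8. The number of the 9 genes called was 2, but 1 with upper quartile scaling (Fh1 adjusted p 0.0562), 3 with RLE scaling (Suclg1 0.0490) or a minimum count of 50 (Suclg1 0.0461), 4 in DESeq2, 1 without Control 4 and Control 5, and 1 to 5 with 1 library left out. The 5 came without HFpEF 1, and 1 remained in each fit that left out HFpEF 2, 3, 4 or 5 or Control 1, 2, 3 or 5.

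Over all genes, 985 calls became 554 without HFpEF 3 and 1101 without HFpEF 1, 633 without HFpEF 4 and 630 without Control 1. DESeq2 called 926 genes higher, against 599. Of the other cycle subunits, counterparts, carbon entry genes and regulators 6 were called, and 3 without Control 4 and Control 5. The 4 ratios that passed became 2 to 4 with 1 library left out, and 0 of 12 without Control 4 and Control 5, where 6 stood at an unadjusted exact permutation p below 0.05 and the smallest p possible is 0.0179.

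Library numbers did not pair the samples: the correlation of same-numbered libraries ran from -0.110 to 0.0638, and 1 of 5 pairs correlated best with its own number. With the replicate block, 744 genes were called, 1 of the 9 (Fh1 adjusted p 0.104), and 0 of 12 ratios, none at an unadjusted p below 0.05, since the smallest exact permutation p is 0.0625. It also ended the calls of Ppargc1a (adjusted p 0.0971), Tnnt2 (0.0573) and Tnnc1 (0.0593), and Mrc1 passed (0.0484). Without Control 4 and Control 5 the log2 difference turned round for Myl4, an atrial marker (0.0762), Idh1 (0.00559) and Idh2/Idh3a (-0.0291). With 1 library left out it ran from -0.221 to 0.00752 for Myl4 (above 0 without Control 1), from -0.00351 to 0.0398 for Idh3a/Idh3b (below 0 without HFpEF 1) and from -0.0551 to 0.0637 for Idh2/Idh3a (below 0 without Control 5). None of these was called. The difference in total counts ran from -6088711 to -2450284 with 1 library left out, and that in mitochondrial share from 1.37 to 2.33 percentage points. The cause of these shifts was not tested. With 5 libraries a group, some of the changes measured here lay close to the threshold of the test. In the main edgeR fit the adjusted p was 0.0417 for Fh1 and 0.0538 for Suclg1. The power of the test for changes of this size is not reported here.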

Other observations

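Outside the gene lists, the transcripts whose log2 levels over the 10 libraries were most like the mean profile of the 9 genes were Ptdss1 (Pearson r = 0.992), which makes phosphatidylserine, Ccser2 (r = 0.977), Ndrg2 (r = 0.972), Ttc7b (r = 0.968) and Kcnj12 (r = 0.968), an inward rectifier potassium channel gene. Spearman's rho lay between 0.964 and 0.976, and r between 0.942 and 0.983 without HFpEF 3 and HFpEF 4. They were picked as the highest of 18491 genes, share the group difference and the scaling of the libraries, and carry no p. Their own log2 fold changes were 0.18, 0.20, 0.18, 0.15 and 0.25, and none passed the test (adjusted p 0.0733 to 0.111). Kcnj12 was at 14.5 CPM in HFpEF and 12.2 CPM in Control, and Ptdss1 at 39.3 CPM in HFpEF and 34.7 CPM in Control.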
